A study of Rattus norvegicus with 24 samples.

Results

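The genes described here are 10 of the 32545 genes with FPKM values in all 24 nucleus accumbens (NAc) libraries of the series. They fall into a set of 2 cold-inducible RNA-binding genes, Cirbp and Rbm3, and a set of 8 chaperones and co-chaperones, Hsph1, Hspa4l, Hspa1b, Dnaja1, Dnajb1, Hspd1, Stip1 and Chordc1. They were chosen by their pattern in rats that self-administered heroin, in which the first set was lower and the second higher. The values of Heroin-SA against Saline-SA are therefore given as a description, and the tests were made in the injected groups, which played no part in the choice.

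All rats were male Sprague Dawley, 8 weeks old on arrival, and each group held 4 libraries. In the self-administration experiment, Heroin-SA rats took heroin at 0.075 mg/kg per infusion and Saline-SA rats took saline, over 10 daily sessions of 6 hours, with tissue taken straight after the last. In the injection experiment, rats received 5 injections of 250 µg/kg LPS, a bacterial cell wall component that triggers an immune response, or of saline, and later 5 daily injections of heroin, rising from 1 to 5 mg/kg, or of saline. The labels put death 1 hour after the last injection, and the study's methods put it after a locomotor test that followed that injection. Their groups, named by the earlier and then the later treatment, were Saline-Saline and Saline-Heroin, without LPS, and LPS-Saline and LPS-Heroin, with it. Injected rats were pair-housed on a normal light cycle and SA rats single-housed on a reversed cycle, so route, housing and time of death cannot be told apart between the experiments. No group combined LPS with self-administration.

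Cirbp and Rbm3 encode small proteins with an RNA recognition motif and a glycine-rich tail. Both transcripts are known to rise on mild cooling and fall on warming, and both proteins act on the stability and translation of other transcripts. Heat shock proteins hold and refold unfolded proteins: HSP70 proteins work with J-domain proteins, which bring them substrates, and with HSP110 proteins, which exchange their nucleotide, while HSP60 folds proteins inside mitochondria. Many of their genes are switched on by heat shock factor 1 (HSF1), which binds inverted repeats of GAA, called heat shock elements, near the gene start. Cirbp and Rbm3 are not classical targets of that factor.

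The promoters of 5 of the genes are shown because the letters of a heat shock element lay in the 250 bases before their start, and that of Cirbp because it holds an octamer described for cold-inducible genes. The sequences are from RefSeq (build GRCr8), 5′ to 3′ along the gene, with the matched letters in capitals.
Hsph1: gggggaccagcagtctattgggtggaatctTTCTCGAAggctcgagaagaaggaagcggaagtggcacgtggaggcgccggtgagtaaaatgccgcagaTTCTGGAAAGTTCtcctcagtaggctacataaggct
Dnaja1: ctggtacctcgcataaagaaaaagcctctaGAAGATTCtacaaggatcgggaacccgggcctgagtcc
Dnajb1: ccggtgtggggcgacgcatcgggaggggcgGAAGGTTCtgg
Hspd1: ggggccTTCCGGAAGGTTCTAGAAccgagc
Stip1: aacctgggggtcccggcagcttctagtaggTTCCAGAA
Cirbp: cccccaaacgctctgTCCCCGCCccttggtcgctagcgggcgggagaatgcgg

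The stretches lie, in build GRCr8, at chr12:10427233-10427367 (Hsph1, plus strand), chr5:60638193-60638260 (Dnaja1, plus), chr19:41431142-41431182 (Dnajb1, minus), chr9:64084256-64084285 (Hspd1, minus), chr1:213657655-213657692 (Stip1, minus) and chr7:10189673-10189725 (Cirbp, minus). A promoter was held for 9 of the 10 genes, all but Hspa1b. GAANNTTC or TTCNNGAA, each its own reverse complement, was found in 5 of the 7 chaperone promoters and in neither cold-inducible promoter, against 13.5% of 33469 promoters of the same length. The chaperone promoters without a match were those of Hspa4l and Chordc1. In Hspd1 the matches starting at -242 and -232 from the gene start each overlap the one at -237. In Hsph1 the matches starting at -36 and -31 from the gene start overlap, and the other, at -105, stands apart. The Hspd1 stretch lies inside the annotated span of the gene, upstream of the start used here. TCCCCGCC on either strand was found in the promoter of Cirbp alone among the 9, and in 4.22% of all promoters. These are matches of letters, and no binding was measured.

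In the self-administration experiment Cirbp (chr7:12401207-12405022, minus strand, coordinates of the deposited table, build rn6) stood at 52.4, 52.7, 48.9 and 42.4 FPKM in the Saline-SA libraries and at 30.7, 37.4, 29.2 and 27.9 in the Heroin-SA libraries. FPKM is a fragment count scaled by gene length and by the size of the library, so levels of different genes can be set side by side. The highest Heroin-SA library lay under the lowest Saline-SA library, and the log2 fold change was -0.65. Rbm3 (chrX:15098904-15102340, plus strand) stood at 51.7, 51.3, 60.8 and 44.1 FPKM in Saline-SA and at 26.8, 33.6, 36.7 and 25.1 in Heroin-SA, a log2 fold change of -0.77. The groups did not overlap for either gene, in the contrast that chose them.

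After injections, no fall of that size was measured in either gene. Cirbp read 63.1, 60.1, 61.3 and 55.8 FPKM in Saline-Saline and 53.0, 60.8, 41.8 and 51.5 in Saline-Heroin. It read 50.4, 57.5, 58.4 and 46.3 FPKM in LPS-Saline and 48.8, 53.7, 62.6 and 54.3 in LPS-Heroin. The ranges of all these groups overlapped, and the single value under every other was that of Saline-Heroin replicate 3. Over both LPS histories the log2 fold change of Cirbp with injected heroin was -0.09 (95% interval -0.26 to 0.08), and the exact permutation p within LPS histories was 0.323. Within saline-treated rats it was -0.23 (interval -0.46 to 0.01, exact permutation p = 0.0857, limma adjusted p = 0.751), and -0.13 without replicate 3.

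Rbm3 read 50.8, 51.6, 59.7 and 49.7 FPKM in Saline-Saline and 62.9, 63.1, 42.4 and 54.4 in Saline-Heroin. In LPS-Saline it was 51.0, 58.7, 49.4 and 52.3, and in LPS-Heroin 53.7, 53.2, 54.1 and 57.3. Again Saline-Heroin replicate 3 was the lowest of the 16 injected libraries, whereas replicates 1 and 2 of the same group were the highest. The log2 fold change with injected heroin was 0.05 (interval -0.10 to 0.21, exact permutation p = 0.503), on the other side of 0 from the -0.77 of Heroin-SA.

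**Figure D1:**
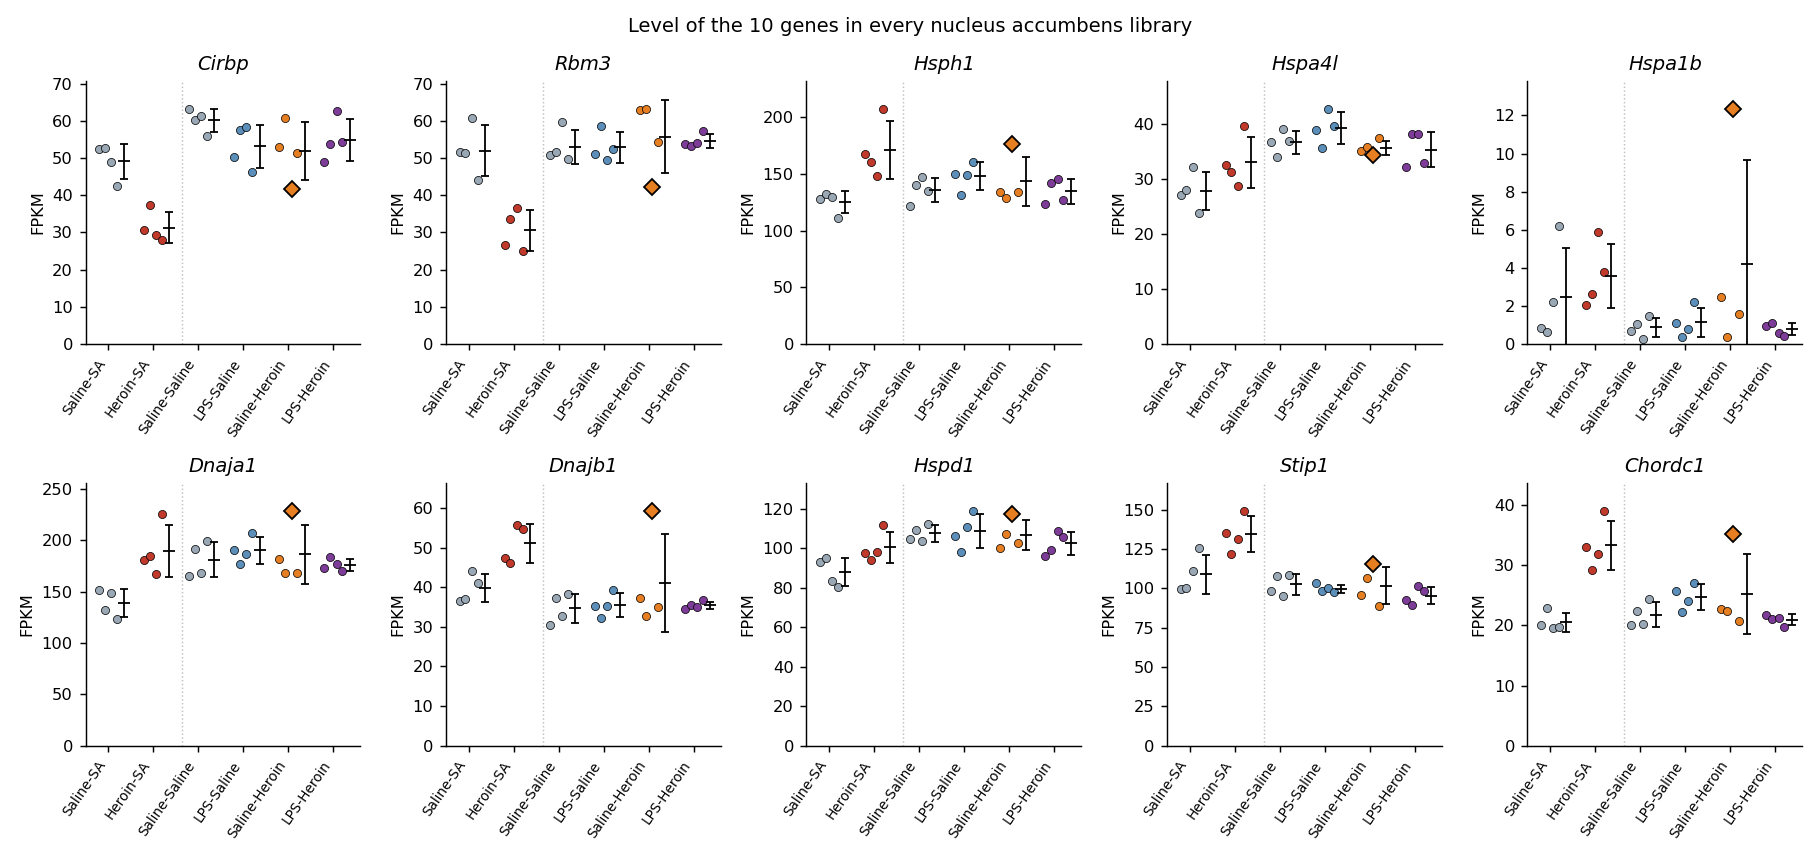
FPKM of each of the 10 genes in every library, by group (horizontal axis), with the mean and SD over 4 libraries as a black bar beside the points; the lower end of a bar that would pass below 0 is not drawn. The diamond marks Saline-Heroin replicate 3, the lowest injected library for Cirbp and Rbm3 and the highest for Hsph1, Hspa1b, Dnaja1, Dnajb1, Stip1 and Chordc1, and the dotted line parts the self-administration groups from the injected groups.

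Hsph1 (chr12:6322668-6341902, minus strand) encodes the main inducible HSP110. It measured 128, 132, 129.9 and 111 FPKM in Saline-SA and 167, 161, 148 and 207 in Heroin-SA, a log2 fold change of 0.44. Every Heroin-SA library was above every Saline-SA library. In the injected groups it measured 122, 140.1, 147 and 135 in Saline-Saline and 134, 129, 176 and 134 in Saline-Heroin. In LPS-Saline it measured 150.1, 131, 149 and 161, and in LPS-Heroin 124, 142, 146 and 127. Among the 8 heroin-injected libraries the 176 FPKM of Saline-Heroin replicate 3 alone passed the highest of its controls, and over both histories the log2 fold change was -0.03 (interval -0.18 to 0.12).

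Hspa4l (chr2:127625737-127677499, plus strand), another HSP110 relative, was the chaperone that followed Hsph1 least from library to library. It ranged from 23.8 to 32.2 FPKM in Saline-SA and from 28.7 to 39.5 in Heroin-SA, which overlapped, with a log2 fold change of 0.25. Injected groups ran from 32.2 to 42.6 FPKM. Its log2 fold change with injected heroin was -0.09 (interval -0.20 to 0.01, exact permutation p = 0.0796), against the direction of Heroin-SA. It was also the only one of the 8 chaperones that was not raised in Saline-Heroin replicate 3, at 34.3 FPKM beside 35.1 to 37.4 in the other 3 libraries.

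Hspa1b (chr20:4877324-4879779, minus strand), an HSP70 that cells induce strongly under stress, was the lowest and most variable of the 10. It measured 0.823, 0.646, 2.20 and 6.19 FPKM in Saline-SA and 2.07, 2.61, 5.88 and 3.76 in Heroin-SA. The highest self-administration value was thus in a saline rat, replicate 4. Without that library the log2 fold change of 0.94 became 1.55. In the injected groups Hspa1b measured 0.683, 1.08, 0.283 and 1.47 in Saline-Saline and 2.45, 0.357, 12.3 and 1.59 in Saline-Heroin. It measured 1.13, 0.394, 0.819 and 2.22 in LPS-Saline and 0.926, 1.13, 0.607 and 0.440 in LPS-Heroin. A single library, Saline-Heroin replicate 3, held 458 reads of the gene, whereas the lowest of the 24 held 10. The log2 fold change in saline-treated rats was 1.37 (interval -0.68 to 3.41), and 0.54 without that library. Leaving out Saline-Heroin replicate 2 instead gave 2.13, which met the limits for a call. Reads of this gene can be shared with the near-identical Hspa1a, which read at most 0.188 FPKM, and the gene overlaps 4 other annotated genes, so its values are uncertain.

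The J-domain proteins followed Hsph1. Dnaja1 (chr5:57028467-57039378, plus strand) measured 152, 132, 149 and 124 FPKM in Saline-SA and 181, 185, 168 and 226 in Heroin-SA, with a log2 fold change of 0.44 and no overlap. In Saline-Saline it measured 166, 191, 168 and 199.8, and in Saline-Heroin 182, 168, 229 and 168. In LPS-Saline it measured 191, 177, 187 and 207, and in LPS-Heroin 173, 184, 177 and 170.5. Replicate 3 of Saline-Heroin was again alone above its controls. With injected heroin the log2 fold change was -0.04 (interval -0.18 to 0.10).

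Dnajb1 (chr19:24747178-24750919, plus strand), the stress-induced HSP40, measured 36.5, 37.1, 44.1 and 41.2 FPKM in Saline-SA and 47.5, 46.2, 55.6 and 54.7 in Heroin-SA. These did not overlap, and the log2 fold change was 0.36. In Saline-Saline it measured 30.5, 37.2, 32.6 and 38.3, and in Saline-Heroin 37.2, 32.8, 59.2 and 35.0. LPS-Saline gave 35.2, 32.1, 35.2 and 39.4 and LPS-Heroin 34.5, 35.4, 35.0 and 36.7. The 59.2 FPKM of Saline-Heroin replicate 3 was above every Heroin-SA library, while no other heroin-injected library passed 37.2. The log2 fold change was 0.10 with injected heroin (interval -0.11 to 0.32) and 0.01 without replicate 3.

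Chordc1 (chr8:17421557-17446165, plus strand) encodes a co-chaperone of HSP90. It gave 20.01, 22.8, 19.6 and 19.7 FPKM in Saline-SA and 33.0, 29.3, 31.9 and 39.0 in Heroin-SA, which did not overlap, with a log2 fold change of 0.69. In Saline-Saline it gave 20.1, 22.4, 20.3 and 24.4, and in Saline-Heroin 22.7, 22.4, 35.1 and 20.8. In LPS-Saline it gave 25.7, 22.2, 23.99 and 27.02, and in LPS-Heroin 21.8, 21.1, 21.2 and 19.8. All 4 LPS-Heroin libraries lay under the lowest LPS-Saline library, the opposite of the self-administered direction, by 0.23 on the log2 scale (interval -0.41 to -0.06, limma adjusted p = 0.977). The exact permutation p was 0.0286, the smallest that 4 libraries against 4 can give. The change was under the 1.3-fold limit of a call.

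Stip1 (chr1:222274133-222293148, minus strand), which links HSP70 to HSP90, ranged from 99.3 to 126 FPKM in Saline-SA and from 122 to 149 in Heroin-SA (log2 fold change 0.30). Hspd1 (chr9:61680530-61690956, minus strand), the mitochondrial HSP60, ranged from 80.3 to 95.2 in Saline-SA and from 94.2 to 112 in Heroin-SA (log2 fold change 0.19). Both pairs of ranges overlapped slightly. In the injected groups Stip1 ran from 89.0 to 116 FPKM and Hspd1 from 96.3 to 119. Their log2 fold changes with injected heroin were -0.04 (interval -0.15 to 0.07) and -0.05 (interval -0.14 to 0.05).

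A gene was called where its unadjusted limma p was at most 0.05 and its change at least 1.3-fold. In Heroin-SA against Saline-SA, where the genes were chosen, 3 of 8 chaperones were called higher, against 3.03% of all genes tested, and both cold-inducible genes lower, against 2.41%. Chordc1, Dnaja1 and Hsph1 were the 3, and both groups of libraries stood apart in 4 of 8 chaperones and in both cold-inducible genes, against 6.8% of all genes. These counts come from the contrast that chose the genes, and nothing is read from them. In the injected groups 0 of 10 genes were called by limma with injected heroin over both LPS histories, where 2.45% of all genes were. The adjusted p-values of the 10 ran from 0.664 to 0.970, and no unadjusted p was under 0.05.

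The count was also 0 of 10 in each pair of injected groups compared. The share of all genes called was 3.07% in Saline-Heroin against Saline-Saline, 2.29% in LPS-Heroin against LPS-Saline, 5.42% in LPS-Heroin against Saline-Saline, 2.36% in LPS-Saline against Saline-Saline and 2.2% in LPS-Heroin against Saline-Heroin. With these shares, 0 of 10 is near the background, and these counts cannot say that the genes were spared more than others. Groups that did not overlap made up 3.39%, 2.58%, 6.86%, 4.11% and 2.37% of all genes in the same order, and among the 10 genes Chordc1 in LPS-Heroin against LPS-Saline was the only case. Since LPS-Heroin, LPS-Saline and Saline-Heroin share the Saline-Saline libraries as controls, their values are not independent. Limma-voom on the recovered reads also called 0 of 10 in each of these pairs and with injected heroin over both histories. In the pairs, Chordc1 in LPS-Heroin against LPS-Saline was the only one of the 10 genes with an unadjusted limma p under 0.05. By limma and by limma-voom, 0 genes of the whole table passed adjustment in any comparison, and 607 to 1725 had an unadjusted limma p under 0.05.

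The size of the shift after each route is given side by side, with 95% intervals from the limma fits for the injected groups only. For Rbm3 the log2 fold change with injected heroin over both histories had an interval of -0.10 to 0.21, beside a value of -0.77 in Heroin-SA. For Chordc1 the interval was -0.24 to 0.19 beside 0.69. This pooled 2 values on either side of 0. Chordc1 changed by 0.19 (interval -0.17 to 0.54) in Saline-Heroin against Saline-Saline and by -0.23 in LPS-Heroin against LPS-Saline. The interval of Dnajb1 over both histories was -0.11 to 0.32 beside 0.36 (standard error 0.09). In Saline-Heroin against Saline-Saline the interval of Dnajb1, -0.19 to 0.61, held the 0.36 of Heroin-SA. The interval of Hspa1b was wide with injections, at -0.71 to 1.72 around 0.50, and held the 0.94 of Heroin-SA. The Heroin-SA values chose the genes, so the choice can push them away from 0, and they carry errors of their own. The difference between the routes itself was not tested, since the self-administration values chose the genes and the experiments share no group.

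**Figure D2:**
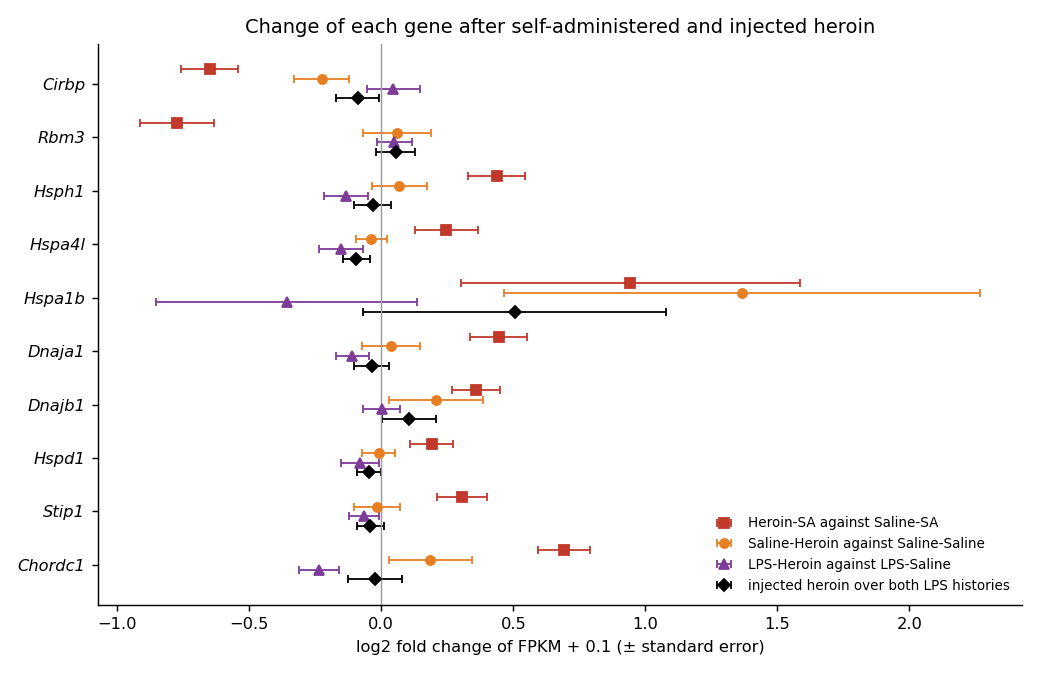
Log2 fold change of FPKM + 0.1 for each gene (horizontal axis), with its standard error, after self-administered heroin (squares), after injected heroin in saline-treated rats (circles) and LPS-treated rats (triangles), and over both (diamonds). Squares lie from -0.77 to -0.65 for the cold-inducible genes and from 0.19 to 0.94 for the chaperones, while the diamonds lie between -0.09 and 0.10 for every gene but Hspa1b.

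To follow the opposite shift library by library, the mean log2(FPKM + 0.1) of Cirbp and Rbm3 was subtracted from that of the 8 chaperones. This balance read -0.51, -0.52, -0.35 and 0.06 in the Saline-SA libraries and 0.82, 0.49, 0.77 and 1.25 in the Heroin-SA libraries. Each Heroin-SA rat showed both arms: Cirbp and Rbm3 were below every Saline-SA library in 4 of 4, and 7, 4, 6 and 7 of the 8 chaperones were above every Saline-SA library. The genes were chosen on this contrast, and the share of all genes so placed in a single library was not counted. The difference of the means was 1.16, and it ran from 1.03 to 1.29 as each library was left out.

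Among injected rats the balance read -0.61, -0.39, -0.78 and -0.22 in Saline-Saline and -0.21, -0.69, -0.35 and 0.02 in LPS-Saline. With heroin it read -0.35, -0.77, 0.70 and -0.34 in Saline-Heroin and -0.42, -0.38, -0.57 and -0.63 in LPS-Heroin. Of the 8 heroin-injected libraries, 7 lay within the range of the 8 saline-injected ones, and Saline-Heroin replicate 3 alone lay within the range of Heroin-SA. That place in the range depended on Hspa1b: without it the balance of replicate 3 was 1.05, under the 1.09 of the lowest Heroin-SA library, while the other 15 injected libraries read 0.13 to 0.65. Replicate 3 had 7 of 8 chaperones above, and both cold-inducible genes below, every Saline-Saline library. The share of all genes so placed in a single library was not counted. The group means (SD, n = 4) were -0.50 ± 0.24 for Saline-Saline and -0.19 ± 0.63 for Saline-Heroin, and -0.31 ± 0.30 for LPS-Saline and -0.50 ± 0.12 for LPS-Heroin. The difference of 0.31 between Saline-Heroin and Saline-Saline was smaller than the SD of Saline-Heroin, and it fell to 0.01 without replicate 3. It was 0.15 without Hspa1b, and 0.14 with medians in place of means.

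**Figure D3:**
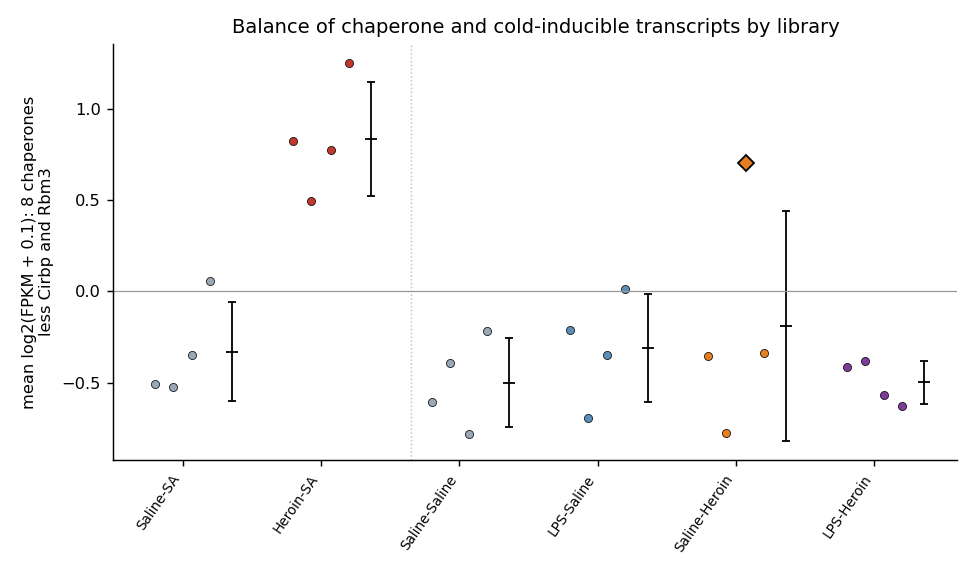
Mean log2(FPKM + 0.1) of the 8 chaperones less that of Cirbp and Rbm3 (vertical axis) in each library, by group, with the mean and SD of 4 libraries as a black bar. Heroin-SA libraries lie from 0.49 to 1.25, and of the injected libraries only Saline-Heroin replicate 3 (diamond, 0.70) lies in that range; without Hspa1b it lies just under it, at 1.05 beside 1.09 for the lowest Heroin-SA library.

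Replicate 3 of Saline-Heroin was singled out after its values were seen. Set against the mean of the other 3 libraries of its group, it was higher by 0.41 on the log2 scale for Hsph1 and Dnaja1, by 0.76 for Dnajb1, by 0.67 for Chordc1 and by 3.31 for Hspa1b, and its Cirbp and Rbm3 differed by -0.39 and -0.50. It did not stand apart over the whole table: its 14756594 reads on genes lay inside the range of its group, its mitochondrial share was 8.28%, and its overall distance from its group mean ranked 19 among the 24 libraries. Among the other chaperone lists, 10 of 17 endoplasmic reticulum chaperones and 18 of 40 further cytosolic heat shock proteins and co-chaperones were above the other 3 libraries, as were 23.5% of all genes. The mitochondrial chaperones and proteases gave 0 of 11 and the chaperonin TRiC subunits 2 of 8. Below the other 3 libraries were 1, 11, 1 and 0 genes of these lists in the same order, as were 23.8% of all genes. The further cytosolic list thus went both ways. Of the 16 Clk kinase and SR splicing factor genes, 8 were above and 0 below. All 5 ependymal and ciliary markers tested were also higher there, with a sum of 12.6 FPKM beside 4.87 to 8.84. The part of those cells in the result was not tested. Its Fos, an immediate early gene, read 15.5 FPKM, below the 24.3 to 39.8 of Saline-Saline, as in the other 3 libraries of its group.

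Whether the 2 sets moved against each other from library to library was asked in the 16 injected libraries, none of which was used to choose the genes. Over the 16 pairs of a cold-inducible gene with a chaperone, Pearson r was negative in 7 of 8 pairs with Cirbp (median -0.59) and in 8 of 8 with Rbm3 (median -0.61). For Cirbp with Dnajb1, r was -0.75 and Spearman rho -0.60 (permutation p adjusted over 16 pairs 0.00632 and 0.0865). For Rbm3 with Dnaja1, r was -0.71 and rho -0.60 (adjusted permutation p 0.00900 and 0.0865). For Cirbp with Hspa1b, r was -0.80 and rho -0.74 (adjusted permutation p 0.00416 and 0.0210). In all, 10 of 16 pairs passed an adjusted permutation p of 0.05 by r and 1 by rho. The pairs share genes and libraries, and several chaperones correlated with each other, so these counts are not of independent results. The share of all genes that correlated this way with Cirbp or Rbm3 was not counted.

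The number of pairs that passed depended on few libraries. With group means removed, r for these 3 pairs was -0.76, -0.74 and -0.83, and 5 of 16 pairs passed. Without Saline-Heroin replicate 3, 0 of 16 passed (smallest adjusted permutation p 0.154), with r of -0.57, -0.50 and -0.65. Without the 2 libraries farthest from the median of the cold-inducible gene, replicate 3 among them each time, 0 of 16 passed again and the medians were -0.05 for Cirbp and -0.37 for Rbm3. The sign of r stayed negative in 8 of 8 pairs with Rbm3 but in only 4 of 8 with Cirbp. Leaving out the extreme values of a gene narrows its range and can weaken r by itself. Part of the loss in both settings may therefore be built in.

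**Figure D4:**
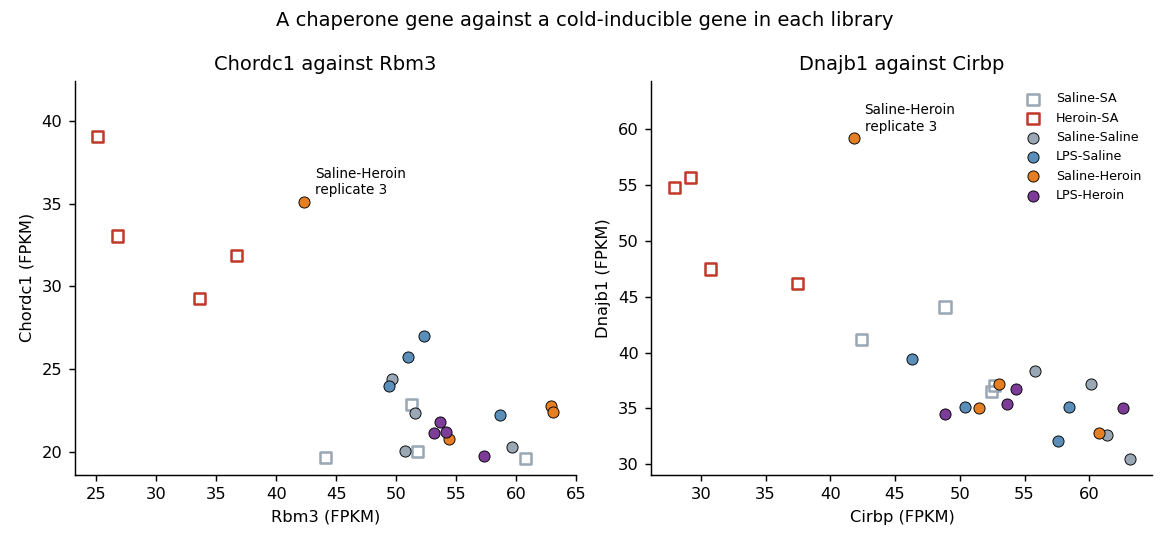
Chordc1 against Rbm3 and Dnajb1 against Cirbp, in FPKM, with a point for each library; open squares are self-administration libraries and filled circles injected libraries. Heroin-SA libraries and Saline-Heroin replicate 3 lie at the upper left of both panels, with Chordc1 at 29.3 FPKM or more, and the other 15 injected libraries lie together at the lower right.

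The chaperones kept different company among themselves. Over the 16 injected libraries with group means removed, Hsph1 correlated with Dnajb1 at 0.79, Dnaja1 at 0.77, Chordc1 at 0.76, Hspd1 at 0.68, Hspa1b at 0.65, Stip1 at 0.41 and Hspa4l at 0.32. Of 15113 genes, those most like Hsph1 were Ncbp1 (0.86), RGD1309748 (0.84), Tmem126a (0.84), Zfp131 (0.82) and AABR07072203.1 (0.81), the last with at most 8 reads in a library. Those most like Rbm3 were Dnttip1 (0.85), Psrc1 (0.84), Gfra4 (0.83), Tmem186 (0.82) and Fv1 (0.82), while Cirbp followed it at 0.63. These values describe 16 libraries and include replicate 3.

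The saline groups of the experiments differed in level for some of these genes. Hspa4l, Dnaja1 and Hspd1 were lower in all 4 Saline-SA libraries than in any of the 8 saline-injected ones, with Dnaja1 at 124 to 152 FPKM beside 166 to 207. Such a gap, in either direction, was found in 21.8% of all genes, so 3 of 10 is near the background. Heroin-SA brought Dnaja1 to 168 to 226 FPKM, the level of injected rats. Cirbp and Rbm3 overlapped between the saline groups, and in Heroin-SA both were below every other library of the series. The mitochondrial share of reads was 10.0 to 15.9% in the self-administration libraries and 6.82 to 9.10% in the injected ones, and its part in these levels was not tested.

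With LPS alone 0 of 10 genes were called, as given above. For LPS-Saline against Saline-Saline the log2 fold change was -0.18 for Cirbp (interval -0.37 to 0.01) and 0.18 for Chordc1 (interval -0.02 to 0.38), and it lay between -0.04 and 0.31 for all 8 chaperones. LPS-Saline replicate 4 had 7 of 8 chaperones above, and 1 cold-inducible gene below, every Saline-Saline library, with a balance of 0.02. Here too the share of all genes so placed was not counted. The effect of heroin after LPS less that after saline was below 0 for 8 of 8 chaperones, beside a median of -0.005 over all genes. The share of all genes below 0 was not counted. The 8 values share the same libraries, Saline-Heroin replicate 3 among them, and are not independent. For this interaction 1 of 10 genes, Chordc1, was called (-0.42, interval -0.81 to -0.03, limma adjusted p = 0.992), where 2.31% of all genes were. Without Saline-Heroin replicate 3 the interaction of Chordc1 was -0.25, under the 1.3-fold limit.

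Other genes of the same pathways gave the setting. With injected heroin, 0 of 40 further cytosolic heat shock proteins and co-chaperones, 0 of 8 chaperonin TRiC subunits, 0 of 11 mitochondrial chaperones and proteases and 0 of 17 endoplasmic reticulum chaperones were called by limma, with median log2 fold changes of 0.01, -0.03, -0.03 and -0.05 beside -0.00115 over all genes. Hspb1, a small heat shock protein, was called higher in Saline-Heroin against Saline-Saline (log2 fold change 0.68, limma adjusted p = 0.7496), at 9.12, 8.54, 15.7 and 8.72 FPKM in Saline-Heroin and 4.73, 5.33, 6.08 and 10.3 in Saline-Saline. Hspb1 and Bag3 were called lower in LPS-Heroin against Saline-Heroin, and Bag3, Hspa12b and Hsf4 lower in LPS-Heroin against Saline-Saline. Hsf1, which encodes the factor itself, showed a log2 fold change of 0.06 (interval -0.11 to 0.23) with injected heroin. Hspa8 and Hsp90aa1, the constitutive HSP70 and the inducible HSP90, averaged under 6 FPKM and under 2 FPKM in every group, and as genes with many near-identical copies their counts are uncertain.

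In the self-administration contrast that chose the genes, the endoplasmic reticulum chaperones had 4 of 17 called higher (Hspa5, Pdia6, Sdf2l1 and Dnajc3) and a median log2 fold change of 0.34, and the further cytosolic list had 3 of 40 (Dnajb2, Cryab and Ahsa2) and a median of 0.11. None of the 16 Clk kinase and SR splicing factor genes was called with either route. Of the 16 other RNA-binding rows, Ybx1 was called lower in Heroin-SA and Hnrnpab lower in Saline-Heroin, LPS-Saline and LPS-Heroin, each against Saline-Saline. These Hnrnpab calls share the same controls, at 9.33 to 33.7 FPKM, and are not independent. Hnrnpab also varied widely within groups, at 20.5, 3.50, 3.32 and 3.26 FPKM in LPS-Heroin and from 2.57 to 56.8 in Saline-SA. Of the circadian clock genes none was called with either route. The glucocorticoid response list had 1 gene higher and 2 rows of Mt1 lower in Heroin-SA, and Mt2A and Nfkbia higher in LPS-Heroin against LPS-Saline.

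With heroin injections the immediate early genes, which are switched on by neuronal activity, were lower. Of 11, 9 were called lower over both LPS histories, with a median log2 fold change of -0.63. The log2 fold change was -0.96 for Fos (limma adjusted p = 0.411), -1.48 for Egr2, -0.92 for Nr4a1, -0.60 for Fosl2 and -0.59 for Egr1. In Heroin-SA 7 of 11 were called lower. LPS-Heroin replicate 1 had the highest mean log2 level of these genes among the 24 libraries, at 5.24. In LPS-Heroin against Saline-Saline 0 of 11 were called lower and 1, Dusp1, higher.

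Markers of the tissue were as labelled: the 11 medium spiny neuron markers summed to 1258 to 3309.6 FPKM, with 0 of 11 called with either route. Cortical glutamatergic markers summed to 56.2 to 485 FPKM across libraries and choroid plexus markers to 0.497 to 322, a wide spread. The lowest cortical sum was in Heroin-SA replicate 4, which had the highest balance (1.25), beside 352 to 437 FPKM in the rest of its group. Saline-SA replicate 3 read 68.3, beside 218 to 278 in the rest of its group. The part of this cortical spread in the balance was not tested. Of 7 cortical markers, 0 were called in Heroin-SA and 3 with injected heroin (2 higher, 1 lower), and of 4 red blood cell genes 0 and 3. In LPS-Heroin against Saline-Saline all 7 cortical markers were called, 6 higher and 1 lower, with a median log2 fold change of 1.05, and their part in the values of that pair was not tested. Of 8 microglial, 7 astrocyte, 8 oligodendrocyte and 6 endothelial markers, 1 astrocyte gene was called in Heroin-SA and none with injected heroin over both histories. In such bulk tissue, fewer cells of a type and less RNA per cell cannot be told apart.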

How the data were processed

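Polyadenylated RNA of the NAc (core and shell) of single rats was sequenced, and the authors deposited FPKM values made with fastp, HISAT2 and featureCounts. Build rn6 comes from the submitters' processing notes, while tool versions, annotation release and strand use in counting are not given in the sources used here. The methods state 6 samples sequenced per group, and 4 per group were analysed here. No column of another series was present. Whole reads were recovered from 100% of values (12312878 to 18850240 reads on genes per library), so precision follows a gene's reads.

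The 10 genes and the gene lists were chosen with earlier results of these data known. log2(FPKM + 0.1) was fitted with limma-trend (limma 3.58.1, R 4.3.3) in genes whose FPKM averaged 0.5 or more, without covariates for pairs of groups and with LPS history for injected heroin over both histories, and p-values were adjusted by Benjamini-Hochberg over all genes tested. These p-values weigh a difference between groups against the spread between libraries. Single genes were compared by two-sided exact permutation, and correlations by 100000 two-sided permutations. Genes named besides the 10 were list genes called with injected heroin (at most 5 per list, smallest p first), Hspa1a, Hspa8, Hsp90aa1, Hspe1 (not analysed here), Hsf1 and the 5 most like Hsph1 and Rbm3; the other genes named as called were chosen after their values were seen. Motifs were searched in RefSeq promoters (GRCr8). Alternatives were other pseudocounts, filters, quantile normalization, all groups in 1 fit, the replicate number as a block and each library left out; limma-voom on recovered reads was added after the data were seen. The fits were tested on simulated data.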

Additional observations from a re-analysis of the deposited data

Results flagged for a closer look

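Among 66 sets of 4 values (the 10 genes and their balance in 6 groups), 4 had a library far from the other 3, where chance gives about 1 in 20. In Saline-Heroin, replicate 3 was far above the others for Hsph1 (176 FPKM beside 129 to 134), Dnajb1 (59.2 beside 32.8 to 37.2) and Chordc1 (35.1 beside 20.8 to 22.7). These 3 come from the same rat and are not independent. In Saline-SA, replicate 2 was above the others for Chordc1, at 22.8 FPKM beside 19.6 to 20.01. The effect of injected heroin on Chordc1 after LPS differed from that after saline by -0.42 on the log2 scale (limma adjusted p = 0.992).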

How the results depend on the processing

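The count of the 10 genes called was 0 under every setting for injected heroin over both LPS histories, for LPS-Heroin against LPS-Saline or Saline-Saline and for LPS-Saline against Saline-Saline. As each library was left out it ran from 0 to 1 in Saline-Heroin against Saline-Saline and in LPS-Heroin against Saline-Heroin (Hspa1b, without Saline-Heroin replicate 2), from 0 to 2 for the interaction and from 3 to 6 in Heroin-SA, where it was 3 without Heroin-SA replicate 4. The interaction lost Chordc1 without Saline-Saline replicates 1 or 3, LPS-Saline replicates 1 or 4, Saline-Heroin replicate 3 or LPS-Heroin replicate 4. The deviations of same-numbered libraries correlated weakly (-0.15 to 0.15), so the numbers are not taken as pairs. In Saline-Saline with LPS-Saline, 3 of 4 libraries matched best with their own number, at correlations of at most 0.11. There the replicate block raised the genes with an unadjusted limma p under 0.05 from 1002 to 1233. With the block the interaction called 0 of the 10 genes in place of 1, and the block changed no other count of calls beyond 1.5 times. The difference in balance between groups moved by less than 1 pooled SD under every other setting. In each injected comparison that SD was larger than the difference itself, so this limit says little of stability. In Saline-Heroin against Saline-Saline the SD was 0.48 beside a difference of 0.31. Over leave-one-out the difference ran from -0.09 to 0.16 for injected heroin. It ran from 0.01 to 0.50 in Saline-Heroin and from -0.32 to -0.08 in LPS-Heroin against their saline groups. In LPS-Heroin and LPS-Saline against Saline-Saline it ran from -0.09 to 0.09 and from 0.08 to 0.32. It ran from -0.50 to -0.01 in LPS-Heroin against Saline-Heroin and from 1.03 to 1.29 in Heroin-SA. Without Hspa1b the balance for injected heroin turned from 0.06 to -0.01. Of 16 pairs, 10 passed by Pearson r, 1 by Spearman, 5 with group means subtracted, 0 without the 2 farthest libraries and 0 without Saline-Heroin replicate 3, the last added after seeing the data. Without a filter on low values, calls over all genes rose from 370 to 651 for injected heroin and from 345 to 548 in LPS-Heroin, 357 to 581 in LPS-Saline, 332 to 524 in LPS-Heroin against Saline-Heroin and 349 to 565 for the interaction. In Saline-Heroin against Saline-Saline they rose from 465 to 726 without Saline-Heroin replicate 2. In LPS-Saline against Saline-Saline they rose from 357 to 624 without LPS-Saline replicate 3. Depth limits Hspa1b alone among the 10, with 10 reads in its shallowest library; the other 9 had at least 552.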
